A study of Mus musculus with 4 samples.

Results

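Il17rb, Il17ra and Crlf2, which encode receptor subunits for the alarmins IL-25 and TSLP, were followed by name in both count tables of the series. They are 3 of the 26421 genes listed in either table. αLPs, the Lin−CD127+FLT3−LPAM-1+ lymphoid progenitors of bone marrow, came from C57BL/6 wild-type (WT) mice and from G3SEKO mice, in which the GATA3-related tandem super-enhancers are deleted. Cells of several mice were combined, marked by hashtags on MHC class I and read by TAS-Seq in 2 experiments. Experiment 1 gave 681 WT and 43 G3SEKO cells after filtering, and experiment 2 gave 5130 WT and 1159 G3SEKO cells. The labels of experiment 2 place both of its hashtags under WT, so every G3SEKO value of that experiment rests on taking the cells named A0303 as G3SEKO. More mice than hashtags were used for each genotype in each experiment, so hashtags combined mice and no cell can be traced to its mouse. A genotype in an experiment is therefore 1 sample, and the p-values measure the spread between sums of cells that may be technical.

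Alarmins are cytokines that barrier tissues release on damage, and group 2 innate lymphoid cells (ILC2s) answer to IL-33, IL-25 and TSLP. IL-25 binds a receptor of IL-17RB, the chain that gives specificity, and IL-17RA, a chain shared with the receptors of other IL-17 cytokines. TSLP binds a receptor of CRLF2 (TSLPR) and the IL-7 receptor α chain CD127, and Il1rl1 encodes ST2, the receptor of IL-33. In bone marrow, ILC precursors (ILCPs) express Zbtb16, cells committed to the ILC2 lineage gain Icos, and ILC2s express ST2.

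The GENCODE annotation of GRCm38 places Il17rb at chromosome 14, 29996135 to 30008896 (minus strand), Il17ra at chromosome 6, 120463247 to 120487559 (plus strand), and Crlf2 at chromosome 5, 109554709 to 109558993 (minus strand). Il17rb overlaps Actr8, a gene of the plus strand, over 10220 bp, of which 141 bp are exonic in both genes. The sources do not say whether reads were counted by strand, so reads of the shared bases cannot be told apart. Actr8 stood at 29.9 to 56.7 CPM (reads of a gene scaled to the same total in each sum) in the 8 WT sums outside the Ccr6+ and ungated cells, where Il17rb ranged from 43.5 to 615 CPM.

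The windows around the start sites of Il17rb and Crlf2, the chains that each give a receptor its specificity for 1 alarmin, are shown to compare a gene whose level differed widely between gates with one whose level did not. They run from 250 bases before to 50 bases after the start (RefSeq, GRCm38.p6), at chr14:30008847-30009146 and chr5:109558944-109559243, both on the minus strand, and capitals mark matches on either strand to GATAA (bound by GATA factors), to CTTTG (TCF factors) or to AGGTCA (ROR factors).
Il17rb: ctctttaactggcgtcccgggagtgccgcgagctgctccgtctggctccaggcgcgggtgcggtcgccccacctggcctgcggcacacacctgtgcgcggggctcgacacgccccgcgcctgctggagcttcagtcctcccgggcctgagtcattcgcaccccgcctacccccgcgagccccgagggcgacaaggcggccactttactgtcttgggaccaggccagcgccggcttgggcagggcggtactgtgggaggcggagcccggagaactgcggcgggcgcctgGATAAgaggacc
Crlf2: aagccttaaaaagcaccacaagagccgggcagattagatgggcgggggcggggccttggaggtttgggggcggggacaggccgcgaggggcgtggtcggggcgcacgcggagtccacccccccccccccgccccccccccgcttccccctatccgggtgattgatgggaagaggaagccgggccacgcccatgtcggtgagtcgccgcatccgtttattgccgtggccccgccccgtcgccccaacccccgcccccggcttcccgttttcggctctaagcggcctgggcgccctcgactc
The Il17rb window held 1 match, GATAA at position 39 downstream of the start, and the Crlf2 window held none. In either orientation, GATAA occurred in 25.8% of 27025 promoter windows, the TCF letters in 54.0% and the ROR letters in 16.0%, and a match is a description of letters, not of a bound site.

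Cells were gated on Zbtb16, Icos, Il1rl1 and Ccr6, with a cell called positive at a value of 1 or more for ln(1 + reads per 10000), or 172 CPM. Ccr6 marks lymphoid tissue inducer cells and ILC3s. The median depth was 396198 reads per WT cell and 509911 per G3SEKO cell in experiment 1, and 29677 and 42814 in experiment 2. Reads of 1 molecule were not collapsed, so the exact binomial 95% intervals below cover counting error only. The Il1rl1+ gate held 424 and 3548 WT cells but 2 and 49 G3SEKO cells in experiments 1 and 2, and the Ccr6+ gate held 2 cells per genotype in experiment 1, so these G3SEKO values and all Ccr6+ values come from experiment 2. The number of cell numbers shared by the experiments was 11. Gata3, the gene the deleted enhancers are named for, had a level of 1184 and 1000 CPM in WT and of 763 and 455 CPM in G3SEKO cells of the Icos+ Zbtb16- gate in experiments 1 and 2, with an edgeR log2 change over both experiments of -0.90 ± 0.27 (SE; adjusted p = 0.87). Over the sums of the 5 gates set by a gene, summed T lineage markers (3 genes) stayed between 1.56 and 37.9 CPM. Summed myeloid markers (6 genes) stayed between 0.393 and 18.2 CPM over the same sums. Dendritic markers (4 genes) did not stay low in all of these gates. Their sum reached 11054 CPM for the WT Ccr6+ cells of experiment 2, and 13839 CPM for the G3SEKO ones. Outside the Ccr6+ gate it ranged from 3.89 to 545 CPM. The part of these markers in the Ccr6+ values was not tested. In the 13 ungated G3SEKO cells of experiment 1 the myeloid sum was 38292 CPM and the T lineage sum 497 CPM.

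Il17rb, the IL-25-specific chain, had the widest range of the 3 genes. In WT cells of experiments 1 and 2 it stood at 43.5 and 138 CPM in the Zbtb16+ Icos- gate and at 267 and 475 CPM in the Zbtb16+ Icos+ gate. It reached 382 and 615 CPM in the Icos+ Zbtb16- gate and 406 and 565 CPM in the Il1rl1+ gate. The Zbtb16+ Icos- gate was the lowest of these 4 in both experiments, and its higher value lay under the lowest value of the other 3 gates. WT cells of the Ccr6+ gate held 45.3 CPM, of which 66.7% of the reads came from 1 cell. Cells positive for none of the 4 genes lay between, at 152 and 396 CPM.

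**Figure D1:**
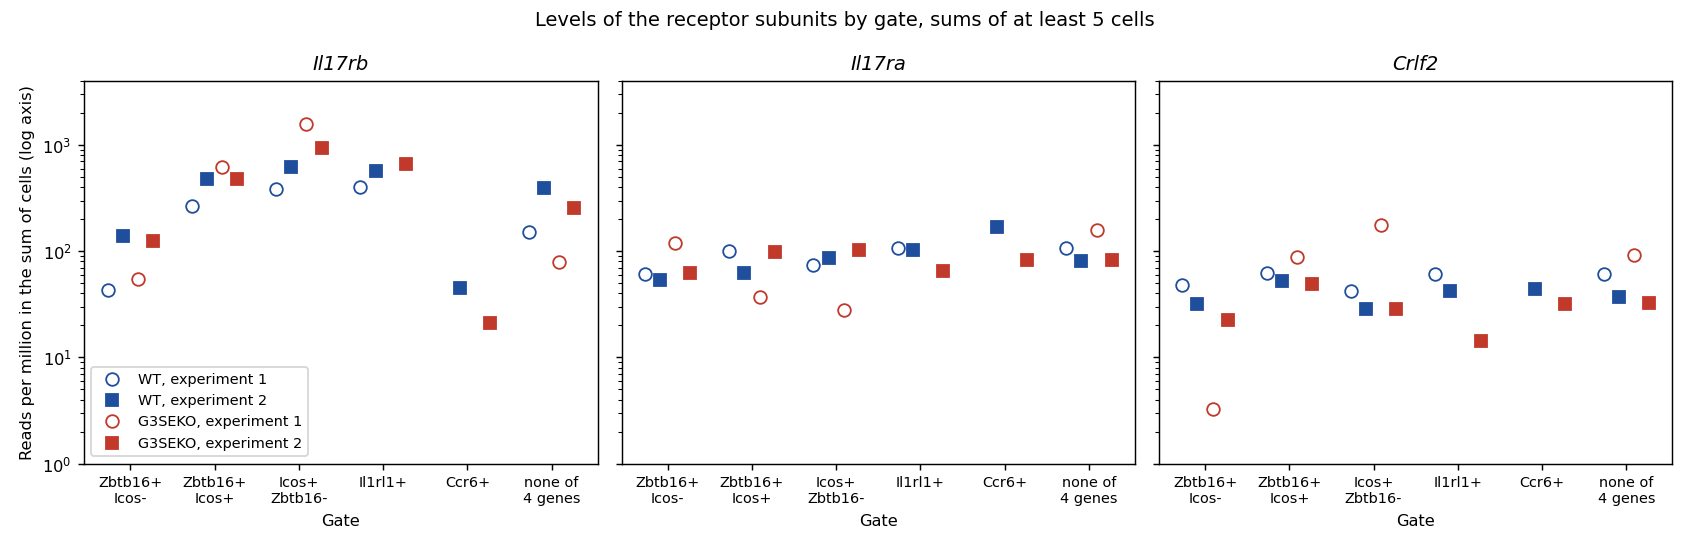
CPM of Il17rb, Il17ra and Crlf2 (log axis) in sums of at least 5 cells by gate; circles are experiment 1, squares experiment 2, blue WT and red G3SEKO. Il17rb lies at 43.5 and 138 CPM in WT Zbtb16+ Icos- cells and at 267 to 615 CPM in the WT gates positive for Icos or Il1rl1, while Il17ra and Crlf2 show no such step.

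The share of cells with Il17rb at 1 or more followed the same order. In the WT Zbtb16+ Icos- gate it was 10.9% (95% interval 4.51 to 21.2) in experiment 1 and 19.5% (13.1 to 27.5) in experiment 2. It was 44.1% (27.2 to 62.1) and 43.6% (33.7 to 53.8) in the Zbtb16+ Icos+ gate. In the Icos+ Zbtb16- gate it was 48.2% (37.1 to 59.4) and 53.3% (49.1 to 57.4), and in the Il1rl1+ gate 50.9% (46.1 to 55.8) and 47.9% (46.2 to 49.5). The intervals of the last 3 gates overlapped within each experiment, and those of the Zbtb16+ Icos- gate did not reach them in either experiment. In the Ccr6+ gate, taken as background, the share was 5.13% (0.627 to 17.3) in WT and 3.70% (1.02 to 9.21) in G3SEKO cells, at median depths of 33886 and 42652 reads. With each cell thinned to 5000 reads, the WT shares were 13.8% and 23.7% in the Zbtb16+ Icos- gate and 40.5% and 51.3% in the Zbtb16+ Icos+ gate.

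**Figure D2:**
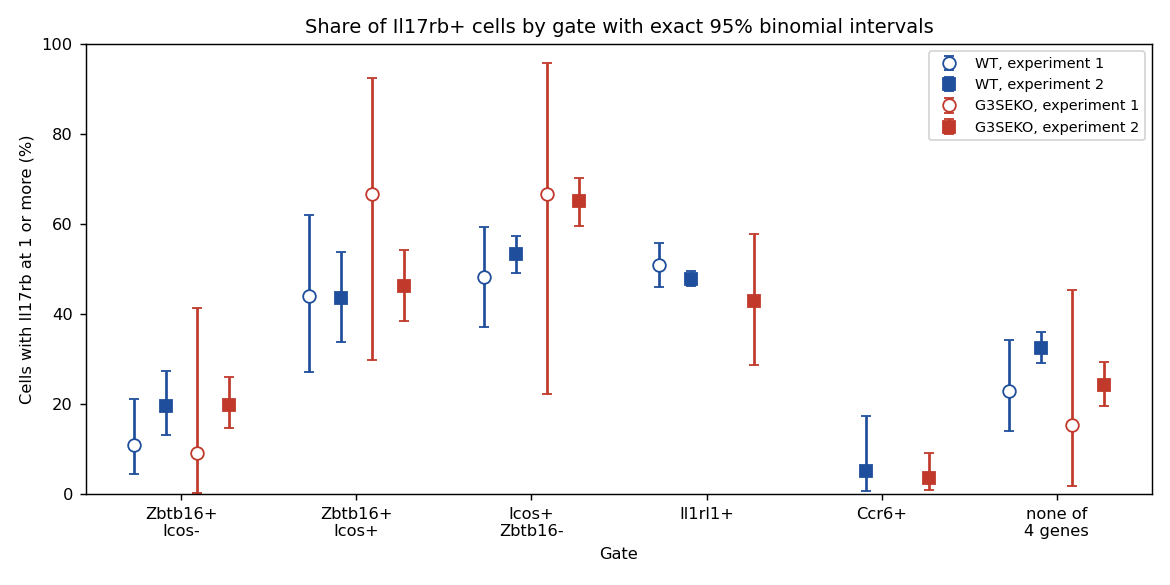
Percent of cells with Il17rb at 1 or more on the ln(1 + reads per 10000) scale by gate; bars are exact 95% binomial intervals, circles experiment 1, squares experiment 2, blue WT and red G3SEKO. The WT shares are 10.9% and 19.5% in the Zbtb16+ Icos- gate and 43.6% to 53.3% in the 3 gates that follow.

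Among the 3 hashtags of WT cells in experiment 1, the Il17rb share was 11.4% ± 2.66 (SD, n = 3) in the Zbtb16+ Icos- gate, 43.1% ± 6.36 in the Zbtb16+ Icos+ gate, 49.4% ± 5.64 in the Icos+ Zbtb16- gate and 51.0% ± 4.70 in the Il1rl1+ gate. The share rose from the first to the second gate in each of the 3 hashtags. From the second to the third it went from 41.7% to 48.3%, from 37.5% to 44.4% and from 50% to 55.6%, higher in each hashtag, on 8 to 36 cells a hashtag and gate. From the third to the fourth it was higher in 2 hashtags and lower in 1. With 3 hashtags no exact paired test can pass 0.05, and none was run. Positive cells also differed in level, with a median of 284 CPM over 7 positive cells of the Zbtb16+ Icos- gate and 601 CPM over 216 positive cells of the Il1rl1+ gate in WT cells of experiment 1. In experiment 2 these medians were 554 CPM over 25 cells and 816 CPM over 1699 cells.

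By edgeR's quasi-likelihood test on the 21 sums, the WT step of Il17rb from the Zbtb16+ Icos- to the Zbtb16+ Icos+ gate was a log2 change of 2.12 ± 0.52 (SE; 95% interval 0.98 to 3.27; adjusted p = 1 over 20545 genes). This step did not pass the threshold of 0.05, and was 2.62 in experiment 1 and 1.79 in experiment 2 taken alone. On simulated counts the fit called 0 of 200 genes changed 4-fold in this comparison when drawn from all genes tested. It called 10 of 100 drawn from the more expressed genes, so the missing call says little. The next step, to the Icos+ Zbtb16- gate, was 0.50 (interval -0.60 to 1.59), and the step from there to the Il1rl1+ gate was -0.01 (interval -1.10 to 1.09). In that last step Il1rl1 itself differed by 5.32 ± 0.49 (SE; edgeR adjusted p = 0.00375), which the gate sets. The Ccr6+ gate against the Zbtb16+ Icos- gate gave -1.23 (interval -2.69 to 0.23) for Il17rb.

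None of the 3 receptor genes passed in any of the 8 comparisons by edgeR, and none by DESeq2. Il17rb had an unadjusted p under 0.05 in 2 comparisons, the step within the Zbtb16+ cells and the genotypes in the Icos+ Zbtb16- gate, where 686 and 920 of all 20545 genes had one. Il17ra and Crlf2 had one in 0 comparisons, and over the 8 comparisons 497 to 1834 genes did. Over all 20545 genes the share called was 0.00487% for the step within the Zbtb16+ cells, 0.00487% for the step to the Icos+ Zbtb16- gate, 0.0146% for the step to the Il1rl1+ gate (0.00973% lower) and 0.161% for the Ccr6+ gate (0.0438% higher and 0.117% lower). It was 0% for the genotypes in the Zbtb16+ Icos- gate, 0% in the Icos+ Zbtb16- gate, 0.0195% in the Il1rl1+ gate and 0% for the difference between the last pair of gates. Sums of few cells share 1 estimate of the spread with sums of many, the intervals are wide, and a missing call says little about a gene.

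**Figure D3:**
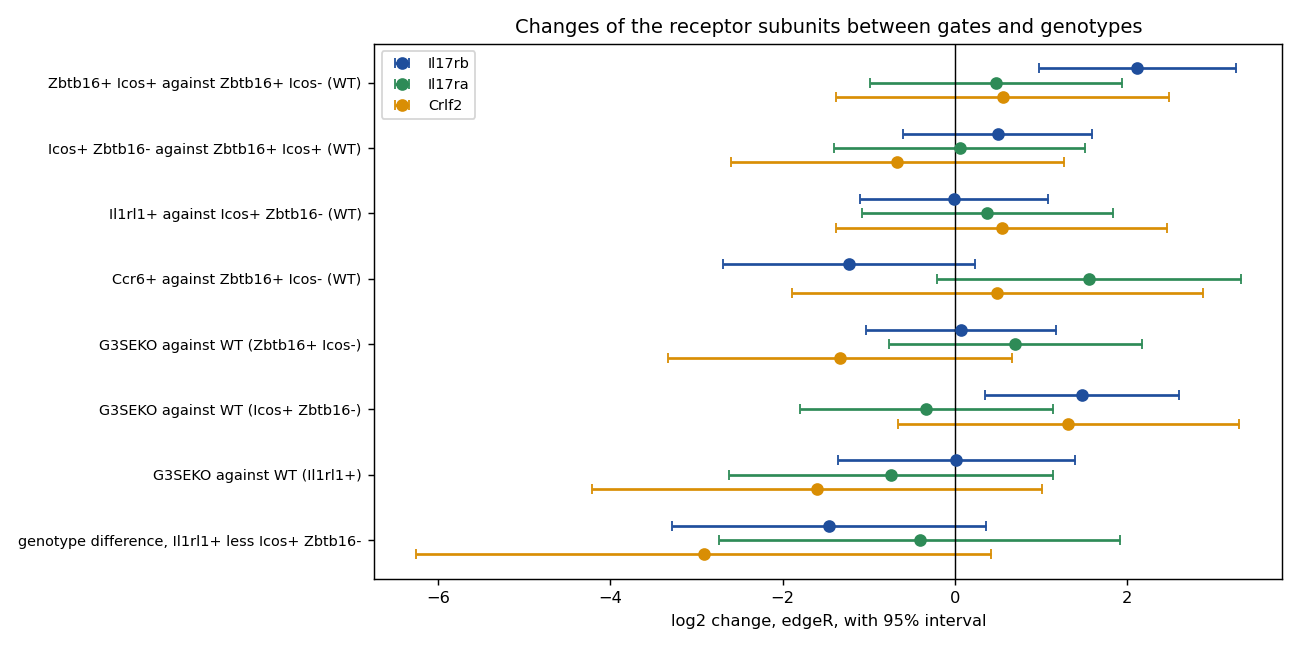
log2 changes of Il17rb, Il17ra and Crlf2 in the 8 comparisons with edgeR's 95% intervals, on a linear axis of log2 units. The interval of Il17rb lies above 0 for the step within Zbtb16+ cells (0.98 to 3.27) and for G3SEKO against WT in the Icos+ Zbtb16- gate (0.35 to 2.60), and neither passed after adjustment.

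In G3SEKO cells the Il17rb level was also low in the Zbtb16+ Icos- gate, at 54.5 CPM in experiment 1 (11 cells) and 125 CPM in experiment 2 (211 cells). In experiment 1, 85.2% of those reads came from 1 cell. It stood at 626 CPM (9 cells) and 483 CPM (162 cells) in the Zbtb16+ Icos+ gate. In the Icos+ Zbtb16- gate it was 1563 CPM over 6 cells and 927 CPM over 318 cells, above the WT values of 382 and 615 CPM of the same experiments. The 49 Il1rl1+ cells of experiment 2 held 662 CPM, of which 24.1% of the reads came from 1 cell, against 565 CPM in WT.

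In the Icos+ Zbtb16- gate the log2 ratio of G3SEKO to WT for Il17rb was 2.03 in experiment 1 and 0.59 in experiment 2. The edgeR estimate was 1.48 ± 0.51 (SE; interval 0.35 to 2.60; adjusted p = 0.87). The value rests in part on the 6 G3SEKO cells of experiment 1, and it was 0.38 when sums under 20 cells were left out, a choice made after the results were seen. The share of Il17rb+ cells in this gate in experiment 2 was 65.1% (59.6 to 70.3) in G3SEKO and 53.3% (49.1 to 57.4) in WT cells, at median depths of 46418 and 29614 reads. After thinning to 5000 reads, with the gates set again on the thinned cells, the shares were 65.0% and 50.9%. Thinning equalises reads, which were not collapsed to molecules. With 1 sample per genotype this gap has no test. In the same gate the summed ILCP markers (5 genes) stood at 1028 CPM in G3SEKO against 818 CPM in WT in experiment 1 and at 1320 against 369 CPM in experiment 2. The summed LTi/ILC3 markers (5 of 6 genes listed) stood at 1092 against 135 CPM and at 337 against 91.8 CPM. The summed NK/ILC1 markers (7 genes) stood at 30.1 against 573 CPM in experiment 1 and at 683 against 146 CPM in experiment 2, in opposite directions. The part of these markers in the result was not tested.

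In the Zbtb16+ Icos- gate the genotypes gave an Il17rb log2 change of 0.07 (interval -1.03 to 1.17), and in the Il1rl1+ gate of 0.02 (interval -1.36 to 1.39). The difference of the genotype effect, Il1rl1+ less Icos+ Zbtb16-, was -1.46 ± 0.83 (SE; edgeR adjusted p = 1; interval -3.28 to 0.36). In cells positive for none of the 4 genes Il17rb was lower in G3SEKO, at 79.1 against 152 CPM in experiment 1 and 253 against 396 CPM in experiment 2. The G3SEKO cells of experiment 1 in this gate hold the myeloid reads given above. Other markers also differed between genotypes in these ungated cells. In experiment 1 the summed ILC2 markers (9 genes) were at 868 CPM in G3SEKO against 2004 CPM in WT. They were at 2082 against 3377 CPM in experiment 2. Gata3, which is among them, was at 257 against 914 CPM and at 327 against 962 CPM. The summed ILCP markers were at 1844 CPM in G3SEKO against 882 CPM in WT in experiment 1 and at 1885 against 314.1 CPM in experiment 2, and the summed NK/ILC1 markers at 3042 against 1542 CPM and at 949 against 127 CPM. Summed dendritic markers (4 genes) were at 181 against 976 CPM in experiment 1 and at 1981 against 926 CPM in experiment 2. The part of these markers in the result was not tested. The median log2 change of all genes tested was -0.14 between genotypes in the Zbtb16+ Icos- gate, -0.34 in the Icos+ Zbtb16- gate and -0.68 in the Il1rl1+ gate.

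Il17ra, the shared chain, moved less between gates. In WT cells of experiments 1 and 2 it stood at 60.4 and 54.0 CPM in the Zbtb16+ Icos- gate, 99.4 and 61.7 CPM in the Zbtb16+ Icos+ gate, 73.8 and 86.9 CPM in the Icos+ Zbtb16- gate and 106 and 102 CPM in the Il1rl1+ gate. The lowest gate was Zbtb16+ Icos- in both experiments, and the middle pair changed places between them. WT Ccr6+ cells had the highest value, 170 CPM over 39 cells, and G3SEKO Ccr6+ cells had 82.4 CPM over 108 cells. Summed dendritic markers stood at 11054 CPM in WT Ccr6+ and 152 CPM in WT Zbtb16+ Icos- cells of experiment 2. Their part in the Il17ra level was not tested. The Ccr6+ gate against the Zbtb16+ Icos- gate gave a log2 change of 1.56 ± 0.81 (SE; edgeR adjusted p = 0.606). In 2 fits added after the results were seen, it passed with sums of at least 20 cells (1.68, adjusted p = 0.0445) and with WT sums alone (1.62, adjusted p = 0.0449). These fits called 752 and 829 genes in this comparison, against 33 in the fit above. The WT Ccr6+ arm is 1 sum of 39 cells in all of them, assumed to vary like the other sums, so the comparison has no replicate of its own. Between genotypes the edgeR log2 change of Il17ra was 0.70 (interval -0.76 to 2.17) in the Zbtb16+ Icos- gate, -0.33 (interval -1.80 to 1.13) in the Icos+ Zbtb16- gate and -0.74 (interval -2.62 to 1.14) in the Il1rl1+ gate. The middle value turned to 0.55 with thinning, 0.70 with 1 sum per hashtag and 0.41 with sums of at least 20 cells. The share of Il17ra+ cells over the WT gates other than Ccr6+ ran from 8.59% to 20.3%.

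Crlf2, the TSLP-binding chain, was called in few cells. In WT experiments 1 and 2 it stood at 47.7 and 31.5 CPM in the Zbtb16+ Icos- gate, 62.1 and 52.4 CPM in the Zbtb16+ Icos+ gate, 42.2 and 28.7 CPM in the Icos+ Zbtb16- gate and 60.3 and 42.2 CPM in the Il1rl1+ gate. The order of these gates was the same in both experiments, and each value was lower in experiment 2. Over the 3 WT hashtags of experiment 1 the levels were 49.9 ± 20.9 (SD), 66.4 ± 24.5, 45.3 ± 20.6 and 61.1 ± 19.1 CPM, and no test was run on these 3 hashtags, which supply every gate. In experiment 2 the share of Crlf2+ WT cells was 5.47% (2.23 to 10.9) in the Zbtb16+ Icos- gate, 3.87% (2.44 to 5.80) in the Icos+ Zbtb16- gate and 4.93% (4.24 to 5.70) in the Il1rl1+ gate, against 5.13% (0.627 to 17.3) in Ccr6+ cells. These intervals overlap that of the Ccr6+ gate. No gate is known to lack Crlf2, so shares this low could not be told apart from free RNA, and no difference between gates is drawn from them.

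Few cells carried most Crlf2 reads. In G3SEKO Il1rl1+ cells of experiment 2 the level was 14.1 CPM, and 83.3% of its 36 reads came from 1 cell. In the 6 G3SEKO cells of the Icos+ Zbtb16- gate in experiment 1 it was 176 CPM, against 28.7 CPM over 318 cells in experiment 2. The genotype change of Crlf2 was -1.33 (interval -3.33 to 0.66) in the Zbtb16+ Icos- gate, 1.32 (interval -0.66 to 3.30) in the Icos+ Zbtb16- gate and -1.60 (interval -4.22 to 1.02) in the Il1rl1+ gate by edgeR. The value of the Icos+ Zbtb16- gate rests on the 6 cells of experiment 1. It was -0.0039 in experiment 2 alone, -0.18 with 1 sum per hashtag and -0.060 with sums of at least 20 cells, so no difference of sign between gates is drawn from it.

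The order of gain was read as each gene's level against its own level in the Il1rl1+ gate. Il17rb stood at 17.6% ± 9.63 (SD, n = 2 experiments, 10.7% and 24.4%, and 27.4% with thinning) in WT Zbtb16+ Icos- cells, 75.1% ± 12.9 in Zbtb16+ Icos+ cells and 101.5% ± 10.4 in Icos+ Zbtb16- cells. Il1rl1 was at 0.937%, 1.14% and 2.53% of its level in the same gates, which the gates themselves require. Il17ra stood at 54.9% ± 2.87, 77.0% ± 23.5 and 77.3% ± 11.0, and Crlf2 at 76.9% ± 3.09, 113.5% ± 15.0 and 69.0% ± 1.28.

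When Il1rl1 was left out of the gates and levels were set against the Icos+ Zbtb16- gate, Il17rb stood at 13% and 40.1% in the WT Zbtb16+ Icos- gate of experiments 1 and 2 and at 71.8% and 82.9% in the Zbtb16+ Icos+ gate. Il1rl1 stood at 8.71% and 38.9% and then at 35.7% and 40.3%. In the Zbtb16+ Icos+ gate Il17rb was thus nearer than Il1rl1 to its level in Icos+ Zbtb16- cells in both experiments of WT cells. In G3SEKO cells of that gate Il17rb stood at 44.5% and 53.0% and Il1rl1 at 20.6% and 52.3%, so their order was not apart in experiment 2. In G3SEKO Zbtb16+ Icos- cells Il17rb stood at 3.88% and 14.0% and Il1rl1 at 24.5% and 38.6%, with Il1rl1 the nearer to its level in Icos+ Zbtb16- cells in both experiments. Il1rl1 was scarce in G3SEKO cells, with 2 and 49 Il1rl1+ cells in experiments 1 and 2. With those cells gated apart it stood at 8.81 and 6.55 CPM in Zbtb16+ Icos- cells (11 and 211 cells). In Icos+ Zbtb16- cells it stood at 3.37 and 10.1 CPM (6 and 318 cells). No order of gain is drawn from these G3SEKO percents. The percents of both genotypes are values of 2 experiments, with no test.

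**Figure D4:**
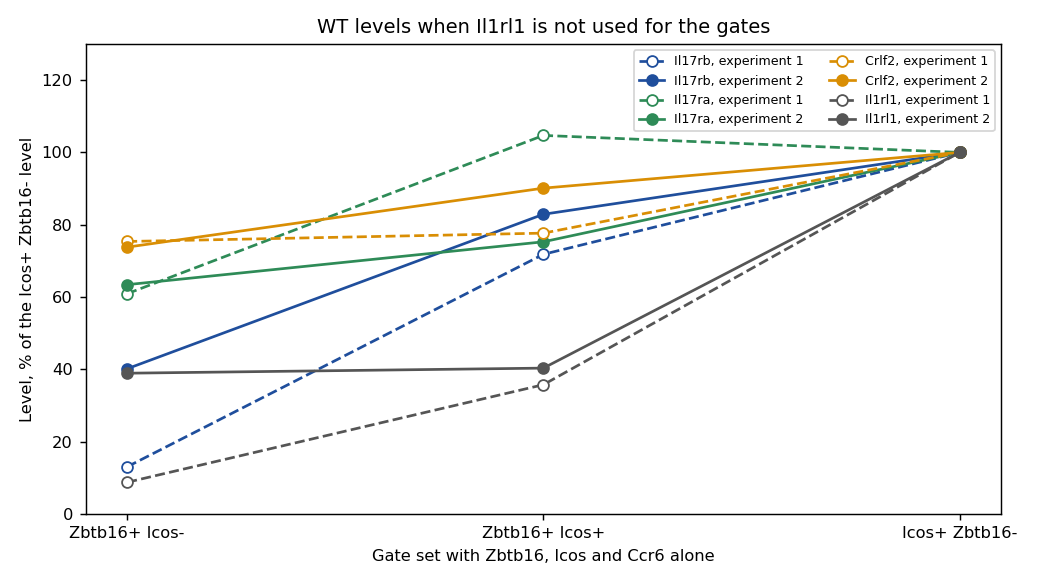
WT levels of the 3 genes and of Il1rl1 as percent of their level in Icos+ Zbtb16- cells, with gates set by Zbtb16, Icos and Ccr6 alone; dashed lines are experiment 1 and solid lines experiment 2. At the Zbtb16+ Icos+ gate Il17rb lies at 71.8% and 82.9% and Il1rl1 at 35.7% and 40.3%.

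Co-detection was counted over single cells. Of WT Il1rl1+ cells, 50.9% (46.1 to 55.8) in experiment 1 and 47.9% (46.2 to 49.5) in experiment 2 were Il17rb+. Of WT Il17rb+ cells, 73.2% (67.8 to 78.2) and 73.4% (71.5 to 75.2) were Il1rl1+. Both genes were positive in 31.7% and 33.1% of WT cells, where the product of their separate shares gives 26.97% and 31.2%. In G3SEKO cells of experiment 2, 4.95% (3.09 to 7.47) of the 424 Il17rb+ cells were Il1rl1+, and 42.0% (28.2 to 56.8) of the 50 Il1rl1+ cells were Il17rb+. In experiment 1, 0 of 13 G3SEKO Il17rb+ cells were Il1rl1+. Over all G3SEKO cells of experiment 2, 4.31% were Il1rl1+, and both genes were positive in 1.81%, where the product of the shares gives 1.58%. The low share of Il1rl1+ cells was thus near that over all G3SEKO cells, and nothing particular to Il17rb+ cells is drawn from it. With thinning the shares were 9.58% of Il17rb+ and 7.34% of all G3SEKO cells, and with detection at 1 read 34.6% and 28.5%.

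In Ccr6- WT cells the share of Il17rb+ cells in experiment 1 was 16.7% where Il1rl1 had no read, 32.5% where it was above 0 and under 1, 50.4% at 1 to 2, 52.6% at 2 to 3 and 46.0% at 3 or more. In experiment 2 these shares were 34.5%, 47.5%, 45.5%, 51.1% and 44.4%. The share was lowest in cells without an Il1rl1 read. Above a value of 1 it was highest at 2 to 3 and lower at 3 or more in both experiments. Median depth was also lowest in the cells without a read, at 215309 reads in experiment 1 and 24116 in experiment 2, and its part was not tested. Thinning gives no like class, since at 5000 reads 1 read already passes a value of 1 and cells under 1 fall among those without a read, where the share was 35.8% of 246 and 40.8% of 1523 cells.

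**Figure D5:**
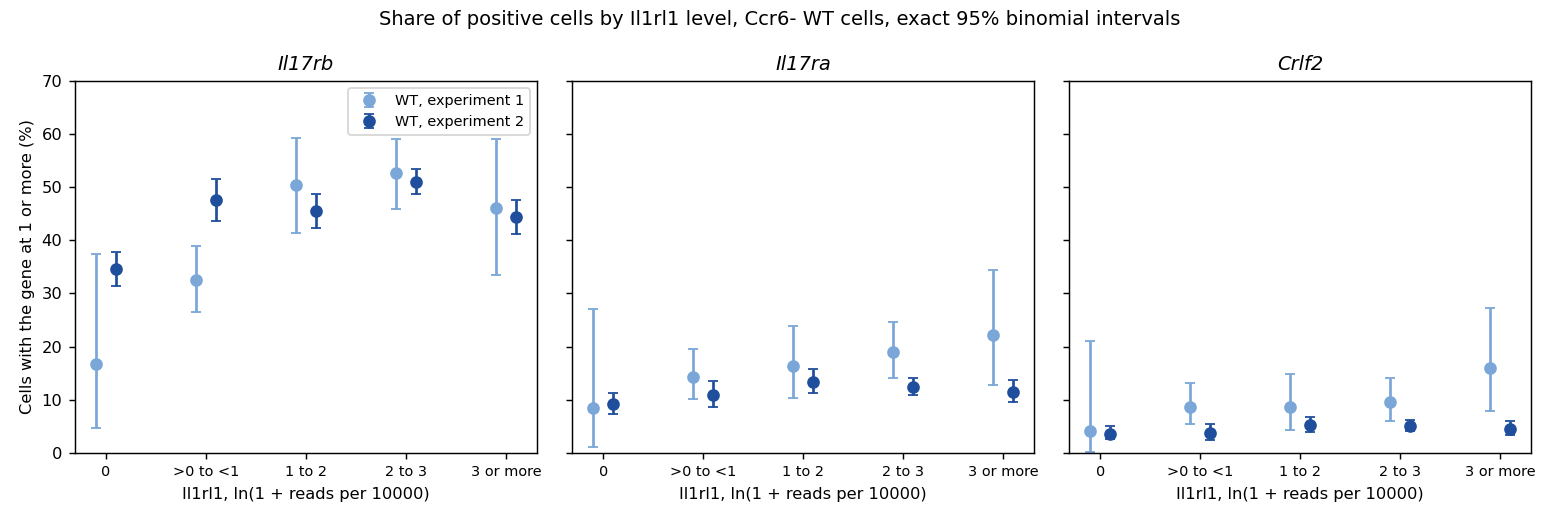
Percent of Ccr6- WT cells with Il17rb, Il17ra or Crlf2 at 1 or more, by their Il1rl1 value; bars are exact 95% binomial intervals, pale points experiment 1 and dark points experiment 2. The Il17rb share is 16.7% and 34.5% in cells without an Il1rl1 read and 44.4% to 52.6% in cells at 1 or more.

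Both chains of the IL-25 receptor were called in few cells. Of WT Il17rb+ cells, 19.3% (15.0 to 24.3) in experiment 1 and 12.8% (11.5 to 14.2) in experiment 2 were Il17ra+, and 50% and 49.3% of WT Il17ra+ cells were Il17rb+. Of all WT cells 8.37% and 5.77% were positive for both, where the product of the shares gives 7.25% and 5.28%. Il17rb and Crlf2 were both positive in 3.82% and 2.36% of WT cells, where the product gives 4.13% and 2.05%. Il7r, whose protein was used to sort the cells, was positive in 98.5% and 93.1% of WT Crlf2+ cells, near its 93.8% and 90.6% over all WT cells. Of WT Il1rl1+ cells, 10.1% (7.44 to 13.4) and 4.93% (4.24 to 5.70) were Crlf2+. At these levels of Il17ra and Crlf2, a cell without a call cannot be taken as a cell without the transcript.

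Il18r1, which encodes the IL-18 receptor chain, divided the Icos+ Zbtb16- WT cells of experiment 2 into 122 positive cells with 67.2% (58.1 to 75.4) Il17rb+ and 447 other cells with 49.4% (44.7 to 54.2). In experiment 1 the shares were 58.7% (43.2 to 73.0) and 35.1% (20.2 to 52.5). In G3SEKO cells of this gate in experiment 2, 270 of 318 cells were Il18r1+, of which 66.7% (60.7 to 72.3) were Il17rb+, against 56.3% (41.2 to 70.5) of the other 48. Among Il18r1+ cells the Il17rb share was thus 67.2% in WT and 66.7% in G3SEKO, with overlapping intervals, beside the 53.3% and 65.1% over the whole gate. The Il17rb level of these Il18r1+ cells was 788 CPM in WT and 961 CPM in G3SEKO in experiment 2. In experiment 1 all 6 G3SEKO cells of the gate were Il18r1+, with 66.7% (22.3 to 95.7) Il17rb+ and 1563 CPM, against 434 CPM in the WT Il18r1+ cells. Median depth was higher in the positive WT cells, at 50245 against 27029 reads in experiment 2, and its part in the result was not tested.

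Of the 5 receptor genes of the IL-17 family, Il17ra and Il17rb included, 0 were called in any comparison by edgeR or DESeq2, and Il17rb alone had an unadjusted p under 0.05, in the 2 comparisons given above. Il17re, the IL-17C receptor chain, stood at 141 CPM in WT Ccr6+ cells, 255 CPM in G3SEKO ones, and 4.07 to 49.2 CPM in the other WT sums. The median log2 change of the 5 genes from the Zbtb16+ Icos- to the Ccr6+ gate was 1.22, against -0.80 over all genes tested. That median is the value of Il17rc (1.22 ± 4.08, SE). Il17ra (1.56) and Il17re (2.37) lay above it, and Il17rb (-1.23) and Il17rd (-0.23) below. No change of the family as a whole is drawn from it. Of 8 genes of IL-25 signalling, 0 were called by edgeR, and DESeq2 called Traf2, an adaptor of receptor signalling, in the Ccr6+ comparison. In that comparison DESeq2 called 767 of all genes. Traf2 there and Map3k7 in 2 genotype comparisons had an unadjusted p under 0.05. Of 9 genes of the TSLP receptor and its signalling, 0 were called by edgeR, and DESeq2 called Stat5a in the same comparison. The unadjusted p was under 0.05 for Il7r in 4 comparisons, Cish in 2 and Stat5a and Socs2 in 1 each, against the 497 to 1834 of all genes given above. Between genotypes in the Icos+ Zbtb16- gate the median log2 change was -0.12 for the IL-17 receptor family, -0.21 for IL-25 signalling and 0.38 for the TSLP list. Cish, a feedback gene of STAT5 signalling, stood at 1.07 and 27.3 CPM in WT Zbtb16+ Icos+ cells and at 98.96 and 162 CPM in Icos+ Zbtb16- cells (edgeR log2 change 4.61, adjusted p = 0.939). Of the 4 other alarmin receptor chains, Il1rl1 was called in the step to the Il1rl1+ gate, which the gate fixes and is no result, and Il18r1 was called higher in G3SEKO Il1rl1+ cells (log2 change 3.67, edgeR adjusted p = 0.0227). That G3SEKO arm is 1 sum of 49 cells, in which the summed ILCP markers were at 1699 CPM against 151 CPM in WT cells of experiment 2, the NK/ILC1 markers at 547 against 27.9 CPM and the LTi/ILC3 markers at 284 against 26.3 CPM, and their part was not tested. DESeq2 also called Il18r1 in the step to the Il1rl1+ gate, as 1 of 43 genes, and between genotypes in the Icos+ Zbtb16- gate, as 1 of 95, and Il18rap in the Ccr6+ comparison. It called Il1rl1 in both of the former, in gates that Il1rl1 itself sets. Of the 6 ligands, 3 were tested, Il7, Il33 and Il17f, with 0 called by edgeR or DESeq2 and 0 at an unadjusted p under 0.05, and Il25, Tslp and Il17a were not analysed here.

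Genes were ranked by Pearson correlation with each receptor gene over the 11 WT sums, which share libraries, depth and animals. The most alike were Sesn1 (0.96), Neu3 (0.96), She (0.96), Dap3 (0.95) and Tgfb1 (0.95) for Il17rb. For Il17ra they were Arf6 (0.95), Syne2 (0.94), Tmem243 (0.93), Myef2 (0.92) and Mvp (0.92), and for Crlf2 Gm10441 (0.95), Leng8 (0.92), Psmb11 (0.90), Vmn2r3 (0.89) and Cyb5r3 (0.88). They are the highest of 20545 genes over 11 points and are a description.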

How the data were processed

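The messenger RNA and hashtag libraries of 2 TAS-Seq experiments were used. The authors aligned reads with Bowtie2 to GRCm38 (mm10), and Seurat 4 is named in the submitters' processing notes. Deposited counts are whole reads for each gene or hashtag in a cell, neither normalized nor collapsed to molecules, and cell names carry a hashtag call. A gene listed in 1 table was set to 0 in the other (23058 genes in both).

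Cells passing the study's limits on reads, at most 10% mitochondrial reads, a called genotype and Id2 at 1 or more on ln(1 + reads per 10000) were kept, and 1 Ccr6+ Il1rl1+ cell was left out of the gates. Cells that the names call doublets were dropped, and no further doublet call was made. Counts were summed per gate, genotype and experiment. Sums of at least 5 cells (21 sums, 8 residual degrees of freedom) were tested with edgeR 4.0.16 (quasi-likelihood, TMM, filterByExpr, experiment as a block, Benjamini-Hochberg over 20545 genes, threshold 0.05), and log ratios of single experiments added 2 reads scaled to depth. On simulated counts the fit recovered the sizes of changes. Of 200 genes changed 4-fold and drawn from all genes tested, it called 0 in the step within the Zbtb16+ cells. It called 3 in the step to the Il1rl1+ gate and 1 between genotypes in the Icos+ Zbtb16- gate. Among the more expressed genes it called 6% to 10% of 4-fold changes and 57% to 70% of 64-fold ones. These last runs were added after the low counts were seen. Sums of an experiment share libraries and animals, and the pairing by experiment comes from the design, since both genotypes were combined in each.

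The alternatives were DESeq2 1.42.0, its size factors, no filter, no block, thinning to 5000 reads, no Id2 limit, a 2-fold hashtag limit (0 cells failed it), detection at 1 read, 1 sum per hashtag and each experiment alone. Fits on sums of at least 20 cells and on WT sums alone were added after the results were seen. Named genes are the 3 receptor genes, fixed pathway lists and the 5 most correlated genes of each. The receptor genes and lists were chosen with earlier results of these data known.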

Additional observations from a re-analysis of the deposited data

Results flagged for a closer look

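The log2 ratio of G3SEKO to WT for Il17rb had opposite signs in both experiments between gates. It was 2.03 and 0.59 in Icos+ Zbtb16- cells and 1.23 and 0.021 in Zbtb16+ Icos+ cells of experiments 1 and 2, and -0.94 and -0.64 in cells positive for none of the 4 gate genes. This difference between gates was not tested. Experiment 1 holds 6, 9 and 13 G3SEKO cells in these gates, and the 13 ungated cells hold 38292 CPM of summed myeloid markers. The summed ILC2 markers of ungated cells were lower in G3SEKO than in WT, at 868 against 2004 and 2082 against 3377 CPM. They were also lower in Icos+ Zbtb16- cells, at 2696 against 3257 and 2212 against 3084 CPM. The part of these markers was not tested.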

How the results depend on the processing

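Of 228 tested alternatives of the 24 changes of the receptor genes, 211 kept direction and call, 2 passed the threshold and 15 changed sign. The 2-fold hashtag limit, which no cell failed, is among them and repeats the reported fit. No receptor gene was called in the reported fit, so a kept call says little. Il17ra in Ccr6+ against Zbtb16+ Icos- cells passed with sums of at least 20 cells (1.68) and with WT sums alone (1.62), both chosen after seeing the data. The sign changed for Il17ra from Zbtb16+ Icos+ to Icos+ Zbtb16- cells with thinning (-0.34) and 1 sum per hashtag (-0.13), and for Il17rb from there to Il1rl1+ cells with thinning (0.023), no Id2 limit (0.00010), sums of at least 20 cells (0.0031) and WT sums alone (0.013). Between genotypes it changed for Il17rb in Zbtb16+ Icos- cells with thinning (-0.012). In Icos+ Zbtb16- cells it changed for Il17ra with thinning (0.55), 1 sum per hashtag (0.70) and sums of at least 20 cells (0.41), and for Crlf2 with 1 sum per hashtag (-0.18) and sums of at least 20 cells (-0.060). In Il1rl1+ cells it changed for Il17rb with thinning (-0.076), 1 sum per hashtag (-0.065) and sums of at least 20 cells (-0.16).

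With each experiment left out in turn, values with no test, Il17ra ran from -0.43 to 0.49 in the step to Icos+ Zbtb16- cells and Il17rb from -0.12 to 0.087 in the step to Il1rl1+ cells. Between genotypes Il17rb ran from -0.14 to 0.32 and Crlf2 from -3.85 to -0.49 in Zbtb16+ Icos- cells. In Icos+ Zbtb16- cells Il17rb ran from 0.59 to 2.03, Il17ra from -1.40 to 0.25 and Crlf2 from -0.0039 to 2.06. The difference of genotype effects for Il17rb was -0.36 in experiment 2, and experiment 1 gave none.

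Genes called were 1, 1, 3, 33, 0, 0, 4 and 0 in the 8 comparisons in their order in the report. DESeq2 called 36, 178, 43, 767, 41, 95, 293 and 77, and thinning gave 2, 87, 19, 211, 1, 63, 177 and 7. In the step to Icos+ Zbtb16- cells DESeq2's size factors gave 2, 1 sum per hashtag 3, sums of at least 20 cells 11 and WT sums alone 12. In the step to Il1rl1+ cells these last 3 gave 7, 1 and 1, and in the Ccr6+ comparison 20, 752 and 829. No Id2 limit gave 61 in the Ccr6+ comparison and 1 for the difference of genotype effects. Between genotypes in Il1rl1+ cells, 1 sum per hashtag gave 1 and sums of at least 20 cells 38. Without the replicate block of experiments the Ccr6+ comparison gave 20, and no receptor gene changed its call.

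With detection at 1 read, WT Il1rl1+ cells were 77.7% Il17rb+ and 27.6% Crlf2+ as means of both experiments. In experiment 2 alone they were 65.6% (64.2 to 67.1) and 9.66% (8.78 to 10.6), against 66.4% (61.0 to 71.4) and 13.3% (9.86 to 17.5) in G3SEKO. Both gaps between genotypes thus changed direction, with overlapping intervals. Il1rl1 was called at 1 read here too, so the Il1rl1+ cells are a different set. Median depth was 42814 reads in G3SEKO and 29677 in WT cells, and its part was not tested. Il17rb+ cells were then Il1rl1+ in 91.8% of WT (mean of both) and, in experiment 2, in 85.8% of WT and 34.6% of G3SEKO, and Crlf2+ cells in 90.7%, 83.0% and 33.6%. Of Il17rb+ cells, 72.9% in WT (mean of both) with thinning and 72.9% without the Id2 limit were Il1rl1+, and 9.58% in G3SEKO with thinning. Thinning moved the percent of the Il1rl1+ level to 27.4% and 90.0% for Il17rb in Zbtb16+ Icos- and Zbtb16+ Icos+ cells, 64.3% for Il17ra and 70.8% for Crlf2 in Zbtb16+ Icos- cells, 95.5% for Crlf2 in Icos+ Zbtb16- cells, and 112.6% and 109.6% for Il17ra and Crlf2 in ungated cells. No Id2 limit gave 73.6% and 80.9% for Il17ra and Crlf2 in Zbtb16+ Icos- cells, 81.8% for Crlf2 in Icos+ Zbtb16- cells and 112.7% for Il17ra in ungated cells. The causes were not tested.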
